A study of Mus musculus with 14 samples.

Results

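The oxidative phosphorylation subunit genes are the nuclear genes for the enzyme complexes of the mitochondrial inner membrane. Their members here were the protein-coding RefSeq genes of the nuclear chromosomes in mouse build GRCm38 whose symbols begin with Ndufa, Ndufb, Ndufc, Ndufs, Ndufv, Sdha, Sdhb, Sdhc, Sdhd, Uqcr, Cox4, Cox5, Cox6, Cox7, Cox8 or Atp5. The rule gave 100 genes of 21887 and used no measured value. It took in 39 complex I subunits, 8 complex I assembly factors (Ndufaf), 4 complex II subunits, 4 complex II assembly factors (Sdhaf), 8 complex III subunits, 20 complex IV subunits and 17 ATP synthase genes. Of these members, 8 encode isoforms that textbooks place in heart, muscle, lung, testis or hypoxic cells.

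CUT&RUN, in which an antibody brings a nuclease to its target so that the DNA around it is cut free and sequenced, had been run on mouse Th1 cells of a strain labelled C57BL/6J-Ets1-SE-KO and of C57BL/6J, called Ets1-SE-KO (KO) and WT below. Both groups were naive CD4 T cells from spleen, activated through CD3 and CD28 and cultured for 6 days with IL-12 at 10 ng/mL and IL-2 at 1 ng/mL. The age and sex of the mice are not given in the labels. H3K27ac, a histone mark of active promoters and enhancers, CTCF, a protein that shapes chromatin loops, and ETS1, a transcription factor of T cells, each had 2 libraries per genotype, and IgG, the control antibody, had 1 per genotype. By the titles the KO libraries are 2 biological replicates and the WT libraries are technical replicates of 1 biological replicate, so the spread between the WT libraries does not hold the differences between mice. The file names number the WT libraries of CTCF differently, which leaves their relation uncertain, and the titles were followed.

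The deposited data are peak lists, 1 per library, without read counts, so the depth behind each list is unknown. Each member was measured by its covered length, the number of base pairs under peaks within 2 kb of either end of the gene. An exact permutation test of this size cannot give a two-sided p below 0.333, so no single gene was called by a test. Groups were instead described by whether both values of one genotype lay above both values of the other, and the main counts over the members stand beside the same share over all protein-coding genes. The windows of 71 members overlapped the 2 kb windows of another protein-coding gene, and a peak in the shared part cannot be given to one gene or the other. The other 29 are called members with windows of their own below. Bodies of other genes were not considered, so such a window may still lie inside another gene.

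Electrons from NADH enter the respiratory chain at complex I and electrons from succinate at complex II. They pass by ubiquinone to complex III and by cytochrome c to complex IV, which reduces oxygen, and the protons pumped on the way drive ATP synthase. Activated T cells build up this machinery as they grow, and the promoters of its nuclear genes are known in mammals to carry sites for NRF1, YY1 and the ETS factor GABP. GABP and ETS1 recognise a like core sequence.

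The promoters on which the ETS1 results turn are shown first, each as 300 bases from 250 bp before to 50 bp after the annotated start, from RefSeq in build GRCm38.p6 and written 5′ to 3′ on the strand of the gene. Capitals mark exact matches, on either strand, to an ETS site (CCGGAAG), an NRF1 site (GCATGCGC) or a YY1 site (AAGATGGC). Ndufb5 at chr3:32736813-32737112 (plus strand), Ndufb2 at chr6:39592315-39592614 (plus strand), Atp5j at chr16:84834927-84835226 (minus strand), Uqcr10 at chr11:4704295-4704594 (minus strand) and Ndufa11 at chr17:56717512-56717811 (plus strand) are the members whose ETS1 peaks ranked best in their weakest list and whose promoter is under an ETS1 peak in all 4 libraries. Cox5a at chr9:57520982-57521281 (plus strand) and Cox8b at chr7:140900397-140900696 (minus strand) were added after their values were seen, the one as a start that lies inside the annotated gene span and the other as a muscle isoform with no peak at all.
Ndufb5: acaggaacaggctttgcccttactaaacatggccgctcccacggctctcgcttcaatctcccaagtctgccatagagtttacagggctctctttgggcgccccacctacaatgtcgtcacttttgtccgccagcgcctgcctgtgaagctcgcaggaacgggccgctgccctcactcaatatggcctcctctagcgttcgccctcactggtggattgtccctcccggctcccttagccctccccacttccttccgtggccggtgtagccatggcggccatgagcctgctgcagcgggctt
Ndufb2: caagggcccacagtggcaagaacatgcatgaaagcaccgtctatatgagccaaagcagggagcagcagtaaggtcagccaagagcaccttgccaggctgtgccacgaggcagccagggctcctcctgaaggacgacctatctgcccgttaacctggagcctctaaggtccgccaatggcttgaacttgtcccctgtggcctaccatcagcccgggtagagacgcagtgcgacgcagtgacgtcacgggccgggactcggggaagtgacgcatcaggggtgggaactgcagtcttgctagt
Atp5j: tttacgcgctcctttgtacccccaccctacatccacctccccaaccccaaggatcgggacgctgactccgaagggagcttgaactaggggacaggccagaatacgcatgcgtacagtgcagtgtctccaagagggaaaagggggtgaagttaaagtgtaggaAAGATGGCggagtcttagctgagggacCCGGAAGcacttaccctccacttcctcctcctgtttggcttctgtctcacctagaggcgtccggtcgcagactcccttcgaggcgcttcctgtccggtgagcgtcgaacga
Uqcr10: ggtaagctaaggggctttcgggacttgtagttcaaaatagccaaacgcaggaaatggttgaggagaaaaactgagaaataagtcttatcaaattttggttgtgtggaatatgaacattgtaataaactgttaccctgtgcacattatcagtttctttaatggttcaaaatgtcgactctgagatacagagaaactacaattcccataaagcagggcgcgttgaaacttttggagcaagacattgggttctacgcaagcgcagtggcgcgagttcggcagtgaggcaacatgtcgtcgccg
Ndufa11: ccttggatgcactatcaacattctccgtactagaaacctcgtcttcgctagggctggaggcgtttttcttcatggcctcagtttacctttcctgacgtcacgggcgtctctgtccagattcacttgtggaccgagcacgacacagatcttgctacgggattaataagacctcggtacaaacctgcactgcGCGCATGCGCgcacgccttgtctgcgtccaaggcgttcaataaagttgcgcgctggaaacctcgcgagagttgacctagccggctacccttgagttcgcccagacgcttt
Cox5a: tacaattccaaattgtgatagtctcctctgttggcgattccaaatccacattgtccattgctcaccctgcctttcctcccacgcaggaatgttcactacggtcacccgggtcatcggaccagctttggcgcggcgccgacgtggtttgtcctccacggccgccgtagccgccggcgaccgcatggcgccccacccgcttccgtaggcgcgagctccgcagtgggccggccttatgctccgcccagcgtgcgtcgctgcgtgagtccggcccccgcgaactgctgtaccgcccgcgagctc
Cox8b: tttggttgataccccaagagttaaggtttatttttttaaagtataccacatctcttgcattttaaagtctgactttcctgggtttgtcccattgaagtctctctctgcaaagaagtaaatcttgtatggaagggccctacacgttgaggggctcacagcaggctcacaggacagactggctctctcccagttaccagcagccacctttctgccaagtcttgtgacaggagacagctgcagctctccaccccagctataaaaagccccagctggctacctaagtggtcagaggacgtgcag

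Of these 7 promoters, Atp5j held 1 ETS match and 1 YY1 match, and Ndufa11 held 2 NRF1 matches on opposite strands that overlap each other. The printed start of Atp5j lies 881 bp inside the gene span. Another promoter entry of Atp5j, at chr16:84835576-84835875, held none of these sites and was also under an ETS1 peak in all 4 libraries. The other printed promoters held no exact match. Among them are Ndufb5 and Ndufb2, the members best ranked for ETS1 when each gene is judged by its weakest list. Sequences that differ from these letters at any base were not sought, so the lack of an exact match does not mean that an ETS site is absent. The GC content was 61.0% at Ndufb5, 60% at Ndufb2, 57.7% at Atp5j, 43.3% at Uqcr10, 54.3% at Ndufa11, 65.0% at Cox5a and 48.3% at Cox8b.

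H3K27ac lay at most of these genes in both genotypes. The members with an H3K27ac peak numbered 87 and 88 in the 2 KO libraries, against 86 and 85 in the 2 WT libraries. A peak stood in all 4 libraries at 84 members, while 42.6% of all protein-coding genes had one in all 4. No member had a peak in both libraries of one genotype and neither of the other, where 1.17% of all genes had H3K27ac in both KO and neither WT library and 0.27% had it in both WT and neither KO library. The marks were thus present or absent alike in the 2 genotypes at nearly all members, and only Ndufs7, Cox6b1, Cox7b and Cox7a1 had a peak in some libraries.

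**Figure D1:**
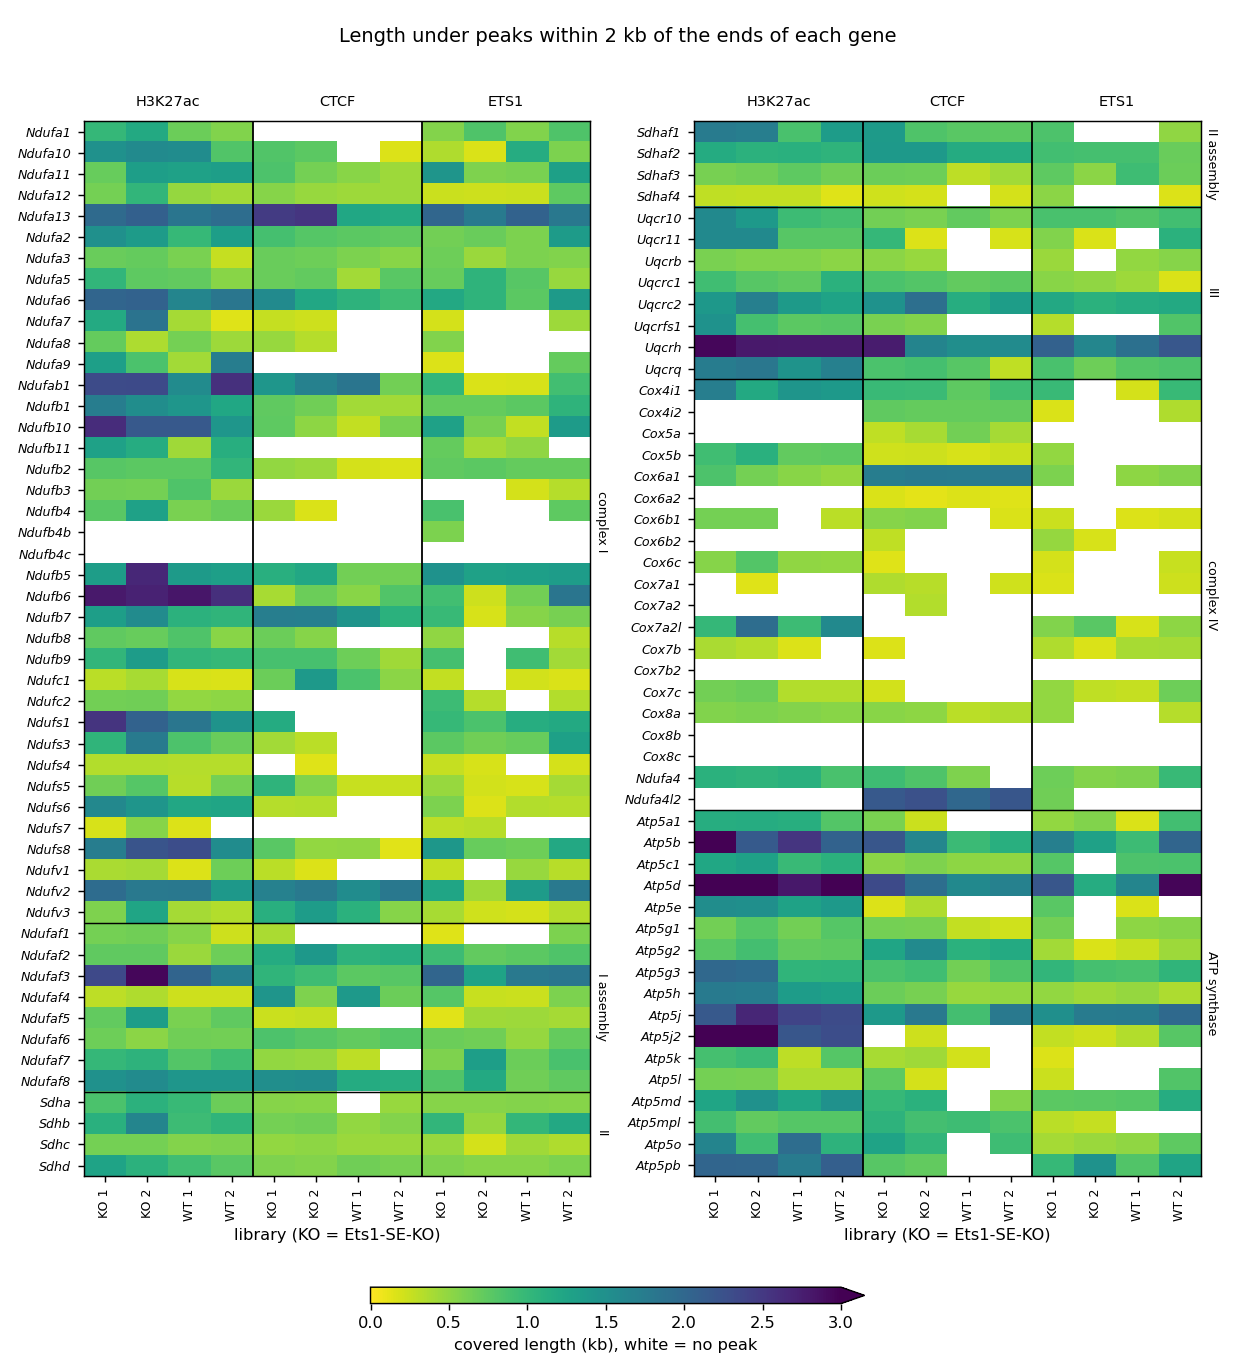
Covered length in kb of 99 of the genes (rows, grouped by complex) in the 12 libraries (columns, with Ets1-SE-KO left of WT within each antibody); white means no peak and the colour scale ends at 3 kb. H3K27ac is filled for 84 genes in all 4 libraries, CTCF is white in both WT libraries and filled in both KO libraries at 14 genes, and the tissue-restricted complex IV isoforms are mostly white for H3K27ac and ETS1.

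By complex, H3K27ac stood in all 4 libraries at 35 of the 39 complex I subunits, at all 4 complex II subunits, at all 8 complex III subunits and at all 17 ATP synthase genes. Complex IV had the lowest count, with 8 of 20 members. None of the 8 tissue-restricted isoforms, all of them complex IV genes here, had the mark in all 4 libraries, while 8 of the other 12 complex IV genes did. Cox4i2 (a lung isoform), Cox6a2 and Cox8b (heart and skeletal muscle), Cox6b2, Cox7b2 and Cox8c (testis) and Ndufa4l2 (induced in hypoxia) had no H3K27ac peak in any library. Cox7a1, the other muscle isoform, had a single peak of 146 bp in KO replicate 2. Cox8b, Cox8c and Cox7b2 had no peak of any of the 3 antibodies in their windows, and the Cox8b promoter printed above was uncovered in all 12 libraries.

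Members outside the restricted isoforms also lacked an H3K27ac peak in the windows. Ndufb4b and Ndufb4c, spans of 471 and 485 bp, had none of H3K27ac or CTCF, and Ndufb4b had ETS1 in KO replicate 1 alone. Cox5a and Cox7a2 encode widely expressed subunits, and each had an H3K27ac peak in all 4 libraries inside the gene, more than 2 kb from either end of the annotated span. At Cox5a, which encodes a subunit of complex IV made in all tissues, this peak was 1368 and 1215 bp wide in the KO libraries and 1147 and 1118 bp wide in the WT libraries. It ranked in the top 0.48% and 0.984% of the KO lists and in the top 0.344% and 0.427% of the WT lists, so it was among the strongest H3K27ac peaks of each library. The annotated start of Cox5a used for the printed promoter lies 3904 bp inside the span, and that of Cox7a2 11569 bp inside. At Cox7a2 the inner H3K27ac peak covered 1184 and 726 bp in KO and 757 and 739 bp in WT. Both genes also had ETS1 and CTCF peaks inside the span in all 4 libraries of each antibody.

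The H3K27ac peaks were longer in KO cells at most members with a peak. Both KO values exceeded both WT values at 55 of the 88 members with a peak, or 62.5%, beside 49.7% of all genes with a peak, and both WT values exceeded both KO values at 1 member, or 1.14%, beside 4.83% of all genes. The median log2 ratio of covered length, KO over WT with 100 bp added to each, was 0.29 over the members with a peak and 0.22 over all genes with a peak. Against genes that, like most members, carried the mark in all 4 libraries the shift was similar, since 61.9% of 84 members and 53.2% of 9321 such genes had more in KO, and 1.19% and 4.57% had less. The KO lists as a whole covered 28 and 28.5 Mb, against 21.8 and 21.3 Mb in the WT lists. The members took 0.797% and 0.826% of the length covered near gene ends in KO, against 0.770% and 0.789% in WT. The part that list length has in the longer peaks of the members was not tested beyond taking the same number of top-ranked peaks from each list, where 62.5% of members and 48.1% of all genes had more in KO.

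The greatest differences in covered length were at the ATP synthase genes Atp5j2 and Atp5d. Atp5j2, for a subunit of the membrane part, had 5242 and 4679 bp of H3K27ac in the KO libraries and 2197 and 2291 bp in the WT libraries, a log2 ratio of 1.11. Atp5d, for a subunit of the central stalk, had 5768 and 5073 bp in KO and 2803 and 3630 bp in WT. Both genes have close neighbours, Cpsf4 and Zkscan14 at Atp5j2 and Cbarp and Midn at Atp5d, and the widest KO peaks, of 7438 bp at Atp5j2 and 10564 bp at Atp5d, reached beyond the windows. Atp5g3, for the proton-carrying c ring, has windows of its own and had 1981 and 1954 bp in KO and 1037 and 1051 bp in WT. At these 3 genes the KO values lay apart from the WT values by more than the libraries of either genotype differed.

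Ndufa7, an accessory subunit of complex I, had 1166 and 1856 bp of H3K27ac in KO and 409 and 147 bp in WT. Uqcr11, a small subunit of complex III, had 1577 and 1581 bp in KO and 774 and 779 bp in WT, with the 2 libraries of each genotype almost equal. The one member with less was Sdhaf3, an assembly factor of complex II, with 618 and 647 bp in KO and 748 and 651 bp in WT. The gap at Sdhaf3, between 647 and 651 bp, was smaller than the spread between the WT libraries. The widest H3K27ac after Atp5d and Atp5j2 lay at Uqcrh, the hinge protein of complex III, with 2951 and 2795 bp in KO and 2780 and 2778 bp in WT, at Ndufb6, with 2791 and 2717 bp in KO and 2820 and 2600 bp in WT, and at Atp5b, the catalytic subunit of ATP synthase, with 3014 and 2152 bp in KO and 2532 and 2057 bp in WT. At Ndufb6 and Atp5b the genotypes overlapped.

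**Figure D2:**
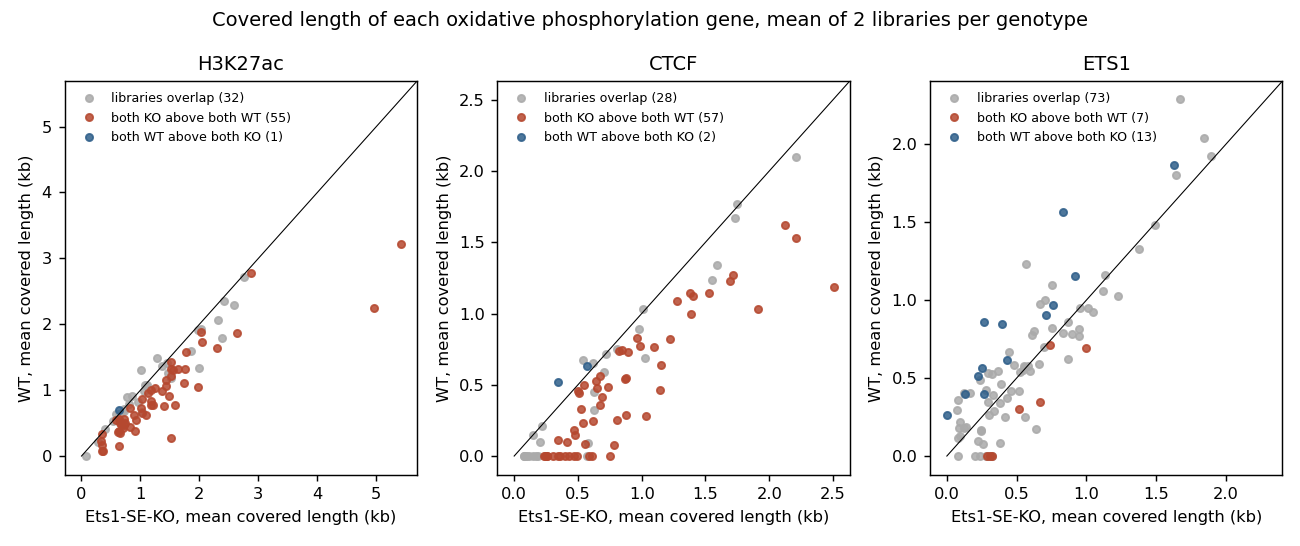
Mean covered length in kb of each oxidative phosphorylation gene with a peak, Ets1-SE-KO on the horizontal axis and WT on the vertical axis, mean of 2 libraries each, with the line of equal length. Points below the line are longer in KO; red points (55 for H3K27ac, 57 for CTCF, 7 for ETS1) have both KO libraries above both WT libraries and blue points (1, 2 and 13) the reverse.

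CTCF was the antibody for which the number of members with a peak differed most between the genotypes while the replicates stayed close. A CTCF peak lay at 84 and 81 members in the KO libraries, against 56 and 61 members in the WT libraries. Over all protein-coding genes the shares were 57.0% and 55.9% in KO and 47.7% and 47.7% in WT. A peak stood in all 4 libraries at 53 members, beside 42.8% of all genes, and 13 members had none. Both KO values exceeded both WT values at 57 of 87 members, or 65.5%, beside 56.7% of all genes with a peak, and the reverse held at 2 members, or 2.30%, beside 2.54%. The median log2 ratio was 0.60 over members and 0.44 over all genes.

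At 14 members CTCF was called in both KO libraries and in neither WT library, where 4.41% of all genes were of this kind. No member had it in both WT and neither KO library, where 0.0914% of all genes did. All 14 carried H3K27ac in all 4 libraries, so that they made up 16.7% of the 84 acetylated members, beside 6.71% of acetylated genes. They were Ndufa7, Ndufa8, Ndufb4, Ndufb8, Ndufs3, Ndufs6 and Ndufv1 of complex I, its assembly factor Ndufaf5, Uqcrb and Uqcrfs1 of complex III, and Atp5a1, Atp5e, Atp5l and Atp5pb of ATP synthase, with none of complex II or IV. Ndufv1 binds NADH, Ndufs3 is a core subunit of the arm that passes electrons to ubiquinone, Uqcrfs1 is the Rieske iron-sulfur protein, Atp5a1 forms the catalytic head with Atp5b, and Atp5pb is part of the outer stalk.

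These peaks were weak ones. In the KO lists they ranked between the top 56.8% and 97.7% in replicate 1 and between the top 54.6% and 98.5% in replicate 2, and covered 158 to 785 bp and 156 to 716 bp. The widest were those of Atp5pb, with 785 and 716 bp in KO and 0 bp in both WT libraries. Ndufb8 had 678 and 543 bp in KO and 0 bp in both WT libraries, and Uqcrfs1 had 607 and 560 bp in KO and 0 bp in both WT libraries. The CTCF lists covered 24.5 and 22.3 Mb in KO, against 18.4 and 17.4 Mb in WT. When the same number of top-ranked peaks was taken from every CTCF list, 6 members had CTCF in KO only, beside 1.91% of all genes, and 57.9% of members with a peak had more in KO, beside 48.0% of all genes. Whether these calls follow the length of the lists was not tested further. Among the 29 members with windows of their own, 2 had CTCF in KO only, or 6.90%, beside 3.56% of all genes with windows of their own. Of the 23 such members with a CTCF peak 12 had more in KO, or 52.2%, beside 53.6% of such genes, so that the members with windows of their own did not stand above the other genes in this count.

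Among acetylated genes, CTCF was less common at these members than elsewhere when the WT libraries had to show it too. It stood in all 4 libraries at 49 of the 84 acetylated members, or 58.3%, beside 75.8% of acetylated genes. More CTCF in KO was seen at 70.5% of the acetylated members with any CTCF, beside 63.5% of such genes. Of the 17 ATP synthase genes, all of them acetylated with CTCF in some library, 14 had more CTCF in KO. Of the 7 complex IV genes of this kind 3 did, beside the same 63.5%. Counting all 16 complex IV genes with a CTCF peak, acetylated or not, 5 did, beside 56.7% of all genes with a peak.

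Of the 5 greatest gains in covered length, 4 were at genes that had CTCF in at least 1 WT library, and the other was that of Atp5pb given above. Ndufa13, an accessory subunit of complex I, had 2477 and 2535 bp of CTCF in KO and 1211 and 1168 bp in WT. Atp5b had 2198 and 1620 bp in KO and 951 and 1113 bp in WT. Atp5md, a small subunit of the membrane part of ATP synthase, had 989 and 1082 bp in KO and 0 and 561 bp in WT. Ndufa10, an accessory subunit of complex I with windows of its own, had 816 and 751 bp in KO and 0 and 155 bp in WT. At Ndufa13 and Ndufa10 the gap between the genotypes was wider than the spread within either, while at Atp5b the KO libraries and at Atp5md the WT libraries differed by more than the gap.

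Less CTCF in KO was found at Sdhd, a membrane anchor of complex II, with 579 and 562 bp in KO and 650 and 617 bp in WT, and at the lower end of the Cox5a span, with 290 and 392 bp in KO and 639 and 406 bp in WT. At that end of Cox5a the gap between the genotypes was smaller than the spread within either, and at Sdhd it was just wider than the spread in WT. Over the annotated start inside the Cox5a span the order was the other way. The CTCF peak there was 1959 and 1921 bp wide in KO and 1398 and 1214 bp wide in WT. Within 2 kb of the starts of the promoter table, 0 members had less CTCF in KO, beside 1.86% of genes with a peak there. The widest CTCF cover was at Ndufa4l2, whose windows had no H3K27ac at all. It had 2161 and 2258 bp of CTCF in KO and 2001 and 2194 bp in WT, and Stac3 and Shmt2 lie close by. Atp5d had 2330 and 1915 bp in KO and 1571 and 1677 bp in WT, Uqcrh had 2769 and 1650 bp in KO and 1519 and 1547 bp in WT, and Cox6a1 had 1733 and 1766 bp in KO and 1748 and 1785 bp in WT. CTCF at Cox6a1 was nearly the same in all 4 libraries, at the other end of the range from Ndufa13.

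**Figure D3:**
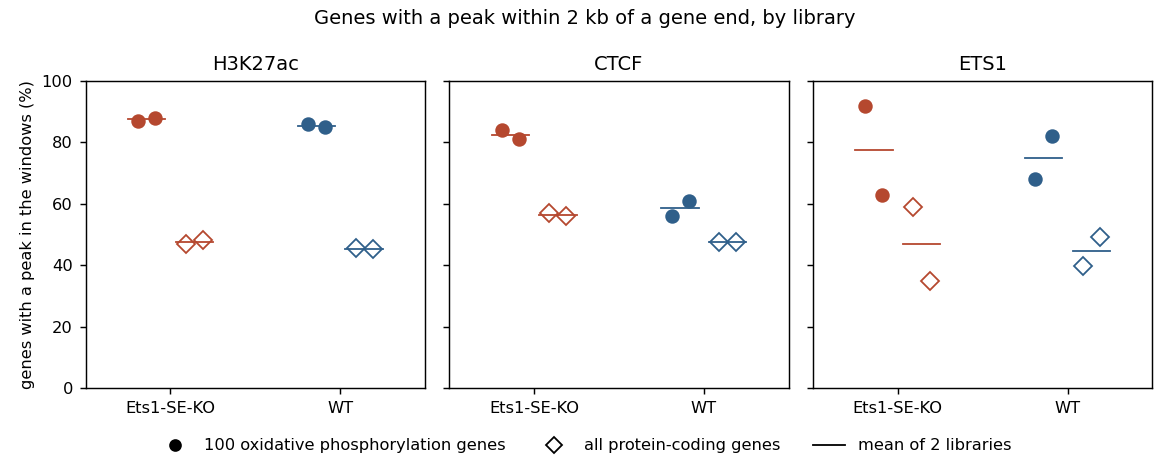
Percentage of the 100 oxidative phosphorylation genes (filled circles) and of all protein-coding genes (open diamonds) with a peak within 2 kb of a gene end, for each library of Ets1-SE-KO (left, red) and WT (right, blue), with lines at the mean of 2 libraries. The members stand above all genes in all 12 libraries, CTCF separates KO (84% and 81%) from WT (56% and 61%), and the ETS1 libraries of each genotype lie far apart.

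ETS1 was found at most members, but its lists were uneven. The 2 KO lists held 40705 and 9344 peaks and the 2 WT lists 14013 and 23419. The members with a peak followed that order, with 92 and 63 in the KO libraries and 68 and 82 in the WT libraries. ETS1 lay in all 4 libraries at 56 members, beside 30.5% of all genes, and in none at 7. Set against acetylated genes this was no higher: 55 of the 84 acetylated members, or 65.5%, had ETS1 in all 4 libraries, beside 67.6% of acetylated genes. None of the 84 lacked ETS1 in all 4 libraries, and few acetylated genes did, 141 of 9321. Taken within a genotype, ETS1 was in both KO libraries at 62 of 87 members acetylated in both KO libraries, or 71.3%, the same as the 71.3% of all such genes. It was in both WT libraries at 64 of 84 members acetylated in both WT libraries, or 76.2%, beside 78.3% of all such genes. Among genes with windows of their own, the KO share was 65.2% of 23 members, beside 66.8% of such genes. The WT share was 63.6% of 22 members, beside 74.5%.

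The complexes differed in how often ETS1 was called. All 4 complex II subunits had ETS1 in all 4 libraries, as did 7 of 8 complex I assembly factors, 23 of 39 complex I subunits, 5 of 8 complex III subunits, 11 of 17 ATP synthase genes, 2 of 4 complex II assembly factors and 4 of 20 complex IV genes. The share was 30.5% of all genes and 67.6% of acetylated genes. Those 4 complex IV genes were among the 12 that are not tissue-restricted, and 0 of the 8 restricted isoforms had ETS1 in all 4 libraries. Counting acetylated members alone, complex I subunits (65.7%), complex III (62.5%) and ATP synthase (64.7%) lay near the share of acetylated genes. Of the 8 acetylated complex IV genes, 3 had ETS1 in all 4 libraries. Sdha, the flavoprotein of complex II, had 542 and 549 bp of ETS1 in KO and 558 and 548 bp in WT. Sdhb, its iron-sulfur protein, had 1030 and 477 bp in KO and 1018 and 1184 bp in WT. The membrane anchors Sdhc and Sdhd had 458 and 199 bp and 580 and 542 bp in KO, against 431 and 357 bp and 550 and 592 bp in WT. At Sdha and Sdhd the ETS1 cover was nearly equal in all 4 libraries despite the unequal lists, while Sdhb and Sdhc were shorter in the shortest list. H3K27ac at the same genes covered 854 and 1077 bp at Sdha, 1092 and 1630 bp at Sdhb, 630 and 628 bp at Sdhc and 1264 and 1078 bp at Sdhd in KO, and 977 and 672 bp, 940 and 1037 bp, 551 and 579 bp and 916 and 768 bp in WT. Both KO values were above both WT values at Sdhb, Sdhc and Sdhd.

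The promoters printed above include those of the members best ranked for ETS1 in their weakest list. Ndufb5, an accessory subunit in the membrane arm of complex I, ranked in the top 0.452% and 0.235% of the KO lists and in the top 0.956% and 0.278% of the WT lists. Its ETS1 cover was 1472 and 1284 bp in KO and 1308 and 1347 bp in WT. Ndufb2, another accessory subunit, was within the top 2.08% of every list, with 734 and 751 bp in KO and 706 and 714 bp in WT. Uqcr10, a small subunit of complex III, was within the top 5.15% of every list, with 866 and 867 bp in KO and 816 and 910 bp in WT. These 3 promoters showed ETS1 of much the same length in both genotypes.

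Atp5j, for a protein of the outer stalk of ATP synthase, shares its promoter region with Gabpa, the gene of the ETS factor GABP alpha, which starts inside the upper end of the Atp5j span and runs the other way. Its ETS1 peak was within the top 3.18% of every list and covered 1509 and 1754 bp in KO and 1759 and 1976 bp in WT. Ndufa11 was within the top 6.13% of every list, with 1437 and 581 bp in KO and 602 and 1299 bp in WT, and here the libraries of a genotype differed more than the genotypes. The other members among the 10 best ranked in their weakest list were Ndufa2, Ndufb6, Ndufaf3, Ndufaf4 and Ndufa4, the last at the top 15.4%. The widest ETS1 cover was at Atp5d, Uqcrh, Ndufa13, Atp5j and Ndufaf3, with means over 4 libraries of 1982, 1944, 1909, 1750 and 1724 bp.

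Few members kept the genotypes apart for ETS1. More ETS1 in KO was seen at 7 of 93 members with a peak, or 7.53%, beside 5.35% of all genes, and less at 13, or 14.0%, beside 9.94%. The median log2 ratio was -0.03 over members and 0.03 over all genes. ETS1 in both KO and neither WT library was found at Atp5mpl, Ndufs7 and Cox6b2, where 0.58% of all genes were of this kind, and in both WT and neither KO library at Ndufb3, where 0.411% of all genes were. Atp5mpl had 315 and 261 bp in KO, Ndufs7 had 303 and 317 bp and Cox6b2 had 471 and 179 bp, all with 0 bp in both WT libraries. At Ndufs7 the peaks of the 2 KO libraries lay at opposite ends of the gene, so they are not one site. Ndufb3 had 0 bp in both KO libraries and 194 and 329 bp in WT.

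The greatest losses of ETS1 cover in KO were at Ndufv2, an iron-sulfur subunit of the NADH arm of complex I, with 1235 and 429 bp in KO and 1350 and 1787 bp in WT, at Ndufa10, with 355 and 175 bp in KO and 1137 and 590 bp in WT, and at Atp5c1, the shaft of the central stalk, with 791 and 0 bp in KO and 840 and 853 bp in WT. At all 3 the KO value of the short list was the lowest of the 4. Atp5j2 had 280 and 231 bp in KO and 342 and 784 bp in WT, and Uqcrb had 449 and 0 bp in KO and 483 and 541 bp in WT. The greatest gains beside the KO-only genes were at Cox7a2l, which helps complexes III and IV associate, with 574 and 764 bp in KO and 186 and 508 bp in WT, and at Ndufaf8, with 812 and 1177 bp in KO and 650 and 738 bp in WT. Leaving out KO replicate 1 moved the share of members with less ETS1 to 47.1%, beside 44.8% of all genes. Leaving out KO replicate 2 moved the share with more to 46.2%, beside 52.7% of all genes, so these counts follow which library is kept. With the same number of top-ranked peaks from each list, 7.41% of members had more, beside 9.42% of all genes, and among acetylated genes 5.95% of members did, beside 6.53%. The share of members with more ETS1 thus lay below that of all genes without KO replicate 2, with equal numbers of peaks and among acetylated genes.

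The 3 signals met at the transcription start. A start was annotated for 82 members, and the share of them under a peak was highest within 150 bp of it for all antibodies. At its highest point the H3K27ac share was 93.9% and 95.1% in KO, against 87.8% and 87.8% in WT. Over all genes with an annotated start it was 41.2% and 42.1% in KO and 38.9% and 38.4% in WT. The CTCF share was 79.3% and 74.4% in KO, against 40.2% and 52.4% in WT, while over 17492 genes it was 43.4% and 41.3% in KO and 29.5% and 30.2% in WT. The ETS1 share was 91.5% and 61.0% in KO, against 65.9% and 85.4% in WT. Over all genes with an annotated start it was 44.2% and 26.5% in KO and 29.6% and 39.3% in WT. Over the 300 bases of the promoter, H3K27ac was present in all 4 libraries at 67 of the 82, ETS1 at 41 and CTCF at 35, beside 38.5%, 24% and 32% of all genes with an entry. Among those 67, ETS1 lay over the promoter in all 4 libraries at 39 and CTCF at 34. Among the 6734 genes with H3K27ac over the promoter in all 4, ETS1 did so at 3843 and CTCF at 4608. Set against these genes, ETS1 was about as common at the members and CTCF was less common.

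**Figure D4:**
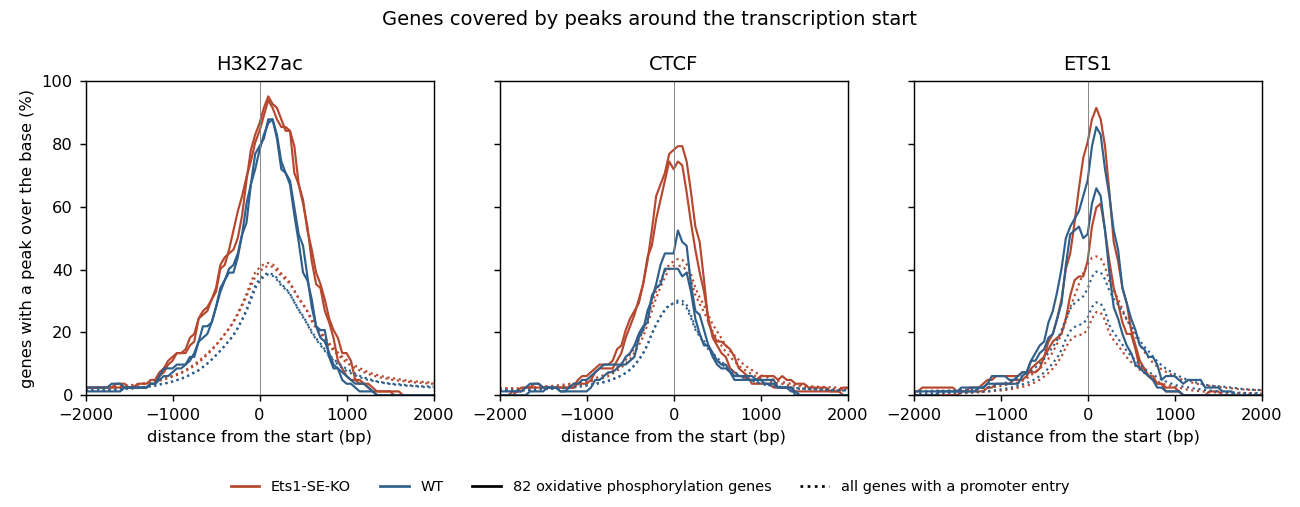
Percentage of the 82 oxidative phosphorylation genes with an annotated start (solid lines) and of all genes with one (dotted lines) that have a peak over each position from 2000 bp before to 2000 bp after the start, 1 line per library, Ets1-SE-KO in red and WT in blue. All 3 antibodies peak at the start; for CTCF the KO lines of the members reach 79.3% and 74.4% and the WT lines 40.2% and 52.4%, while the ETS1 lines of the genotypes interleave.

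The far end of the genes carried peaks less often than the start. Among 60 members longer than 4 kb with a known strand, H3K27ac lay at the start in 57 and 57 genes in KO and in 56 and 55 in WT, and at the other end in 15 and 14 genes in KO and in 12 and 13 in WT. The other end was thus marked in 25% and 23.3% of these members in KO and in 20% and 21.7% in WT, beside 13.5% and 14.7% in KO and 12.1% and 12.2% in WT over 14058 genes of this kind. Over the same 14058 genes H3K27ac lay at the start in 50.9% and 52.3% in KO and in 49.6% and 49.1% in WT, so the shares at the other end compare unlike sets. Of the members marked at the start, 42 of 57 and 43 of 57 in KO and 44 of 56 and 42 of 55 in WT were marked there only. Over all such genes this held at 5688 of 7157 and 5737 of 7354 in KO and at 5687 of 6974 and 5607 of 6898 in WT. CTCF lay at the start in 50 and 52 genes in KO and in 31 and 36 in WT, and at the other end in 9 and 10 genes in KO and in 8 and 7 in WT. Over all such genes CTCF was at the start in 59.5% and 58.4% in KO and in 47.8% and 48.1% in WT, and at the other end in 17.4% and 16.5% in KO and in 14.5% and 14.4% in WT. The KO counts were above the WT counts at both ends, in the members and in all genes.

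At 3 members the promoter was under H3K27ac in both KO and neither WT library, beside 1.75% of genes with an entry. They were Atp5l, Cox7c and Ndufv1, which had H3K27ac in the wider windows in WT as well. The reverse held at Ndufa11 alone, beside 0.274% of genes with an entry. There the WT peaks ran over all 300 bases in both libraries, at chr17:56716661-56717940 and chr17:56716641-56717958, and the KO libraries each had a peak before and a peak after the start with the printed promoter between them uncovered. The ETS1 peaks covered 300 and 158 bases of that promoter in KO and 162 and 300 in WT.

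Exact matches to the ETS site stood in the promoters of 22 of the 82 members, or 26.8%, beside 12.9% of all 17492 genes with an entry and 25.7% of the genes with H3K27ac over the promoter in all 4 libraries. The NRF1 site stood in 12, or 14.6%, beside 3.94% of all and 6.91% of acetylated promoters, and the YY1 site in 11, or 13.4%, beside 3.57% and 6.58%. At least 1 of these sites was in 38 members, or 46.3%, beside 18.7% and 35.4%. The like set for acetylated promoters is the 67 members with H3K27ac over the promoter in all 4 libraries. Of these, 29.9% held the ETS site, 13.4% the NRF1 site, 13.4% the YY1 site and 47.8% at least 1 of them. These are shares of letters found in a fixed window on both strands. By complex, the ETS site was in 6 of 15 ATP synthase promoters, 2 of 3 of complex II, 2 of 5 of complex III, 3 of 14 of complex IV and 4 of 34 of complex I, and the YY1 site was in 7 of the 34 of complex I and in none of the 14 of complex IV. Of the 41 members with ETS1 over the promoter in all 4 libraries 12 held the ETS site, or 29.3%, beside 27.2% of all genes with ETS1 there in all 4. Of the 34 with it in 1 to 3 libraries 9 did, or 26.5%, beside 16.7% of such genes, and of the 7 with it in none 1 did, where 302 of 8384 such genes did. The 4 restricted isoforms with an entry held none of the 3 sites.

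The other genes of the pathway, 36 assembly factors and cytochrome c genes outside the symbol rule, gave H3K27ac in all 4 libraries at 34, beside 42.6% of all genes. More H3K27ac in KO was seen at 18 of 35 with a peak, or 51.4%, beside 49.7% of all genes, and less at 2, or 5.71%, beside 4.83%. They had more CTCF in KO at 21 of 35, or 60%, beside 56.7%, CTCF in KO only at 3 of 36, beside 4.41%, and ETS1 in all 4 libraries at 27 of 36, beside 30.5% of all genes. Among the 34 acetylated ones ETS1 was in all 4 libraries at 26, or 76.5%, beside 67.6% of acetylated genes. Cycs, which encodes cytochrome c, had 2184 and 1760 bp of H3K27ac in KO and 1431 and 1091 bp in WT. Among 15 regulators of mitochondrial genes, 12 had H3K27ac and 13 had ETS1 in all 4 libraries, and 13 of 14 with a CTCF peak had more in KO, beside 42.6%, 30.5% and 56.7% of all genes. Gabpa itself had 2035 and 1884 bp of H3K27ac in KO and 2046 and 2013 bp in WT, Nrf1 had 2030 and 1787 bp in KO and 1573 and 1423 bp in WT, and Tfam, the packaging factor of mitochondrial DNA, had 1174 and 1926 bp in KO and 959 and 902 bp in WT.

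Of the control libraries, the IgG list of KO held 285 peaks and that of WT 2. An IgG peak touched 2 members, Atp5j2 and Ndufa2, in KO and none in WT, beside 0.882% of all genes in KO. The IgG peak at Atp5j2, 291 bp wide, lay within the H3K27ac peak at its upper end, and that at Ndufa2 was 704 bp wide. As a check on the cells, the T cell markers Cd3d, Cd3e, Cd3g and Cd4 and the Th1 genes Tbx21 and Il12rb2 had H3K27ac in all 4 libraries, while Stat4 and Cxcr3 had none in these windows and Ifng had it in WT replicate 1 alone. Of the markers of other cells, 1 of 2 CD8 T (Cd8b1), 1 of 4 B cell (Cd79a), 2 of 4 myeloid (Cd68 and Csf1r) and 0 of 2 NK genes had H3K27ac in all 4 libraries. Cd8a, Cd79b, Ms4a1, Lyz2, Itgam, Ncr1 and Klrb1c had none in any. Of the erythroid genes, Klf1 had H3K27ac in all 4 libraries and Hba-a1 had none in any. Among the markers with H3K27ac in all 4 libraries, only Cd3e, Tbx21 and Cd8b1 had windows of their own. At the others, such as Il12rb2 beside Serbp1, a peak may lie in the windows of a neighbour too.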

How the data were processed

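CUT&RUN peak lists of 14 libraries from mouse Th1 cells were used, grouped by antibody and genotype as in the titles. The submitters' processing notes name BWA and build GRCm38, and the peak names inside the files carry the naming of MACS2. Versions, caller options and use of a control library: not given in the sources used here. All lists have 9 columns without a header. The authors deposited for each peak a score derived from its q-value, a fold ratio over background, and −log10 p and −log10 q. These belong to single libraries and were used only to rank peaks within their own list, by q, then p, then fold. Without read counts the depth of a library is unknown, and depth or background can set how long a list is.

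Gene positions came from a RefSeq table of GRCm38.p6, which gives spans without exons; strands and starts came from the RefSeq promoter table, with 87 entries for 82 of the 100 members. A gene had a peak where at least 1 bp of a peak lay within 2 kb of either end. The genes named follow a rule: per antibody those called in 1 genotype only, up to 5 with the greatest difference each way among genes whose libraries do not overlap, the 5 widest, the 10 best ranked for ETS1, those without H3K27ac, complex II, and those with an IgG peak. Other named genes were chosen after their values were seen. The members, the lists and the motifs were chosen with earlier results of these data known. Trac, among the T cell markers, was not matched. Separate values of 1 member and 1 erythroid marker are not reported here; the member is in the counts. No test was run on the members. The code for windows was tested on simulated intervals. The alternatives were windows of 1 and 5 kb, the same number of top-ranked peaks per list, the upper 50% of each list, 50% of a peak in the window, the start end only, subunits only, members with windows of their own, each library left out, and, added after the data were seen, the starts of the promoter table and genes acetylated in all 4 libraries. Python 3.11.15, numpy 2.4.6, pandas 2.3.3 and matplotlib 3.10.9 were used.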

Additional observations from a re-analysis of the deposited data

How the results depend on the processing

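Shares are percentages of the members with a peak unless a count is named. The median log2 ratio of H3K27ac was 0.23 with 1 kb windows, 0.34 with 5 kb windows and 0.25 with 50% of the peak in the window, and 0.26 to 0.34 with a library left out. Over all genes these H3K27ac medians were 0.17, 0.26 and 0.21, and 0.19 to 0.23 with a library left out. That of CTCF was 0.47 with the same number of peaks, 0.75 with the start end only and 0.54 with the upper 50% of each list. Over all genes these 3 CTCF medians were 0.30, 0.48 and 0.62. The median of ETS1 ran from -0.49 to 0.15 with a library left out, and from -0.72 to 0.51 over all genes. With the upper 50% of each list, 31 members had CTCF and 36 had ETS1 in all 4 libraries, beside 20.5% and 18.3% of all genes. In that setting 8 members had CTCF in KO only, and 4.49% had more ETS1 in KO. CTCF in KO only was found at 8 members with 5 kb windows, 6 with the same number of peaks, 6.90% of those with windows of their own and 17 to 22 with a library left out. Less CTCF in KO was seen at 1.18% with 1 kb windows, 0 with 5 kb windows, 3.95% with the same number of peaks, 1.18% with 50% of the peak in the window, 1.39% with the start end only, 4.35% with windows of their own, 0 at promoter starts, 1.28% of acetylated members and 4.60% to 8.05% with a library left out, where all genes gave 4.46% to 10.6%. Less H3K27ac was seen at 2.27% with 1 kb windows, 2.63% with the start end only, 0 of the subunits, 4.35% with windows of their own, 2.56% at promoter starts and 3.45% to 9.09% with a library left out, where all genes gave 10.3% to 13.3%. Less ETS1 was seen at 8% with windows of their own and 18.3% to 47.1% with a library left out, and more ETS1 at 11.8% to 46.2%, where all genes gave 12.5% to 44.8% and 7.59% to 52.7%. In the other settings named, all genes gave 1.63% to 4.19% for less CTCF, 4.24% to 5.48% for less H3K27ac, 9.07% for less ETS1, 3.81% for more ETS1 and 1.91% to 5.30% for CTCF in KO only, with 5.52% to 8.15% for the last with a library left out. The cause of these shifts was not tested; leaving out a library also loosens the rule, since 1 value then stands for a genotype. In all, 163 values stayed within 1.5 times the reported one or within its spread and 43 moved. No paired analysis was possible because the WT libraries are technical replicates of 1 biological replicate and the counts come from no test.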
